A study of Mus musculus with 6 samples.

Results

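The genes described are those of insulin-like growth factor 1 (Igf1), its receptor (Igf1r) and 6 of its binding proteins (Igfbp2 to Igfbp7), chosen by symbol. These 8 members were among the 55291 gene symbols counted, and all 8 passed the filter on low counts that left 18621 genes for testing. The assay was bulk RNA-seq of tumours that CT2A cells, a mouse glioma line, formed under the skin of mice. The 3 knockout (KO) libraries came from tumours of Siglece KO mice and the 3 wild-type (WT) libraries from tumours of WT mice; Siglece encodes an inhibitory sialic-acid receptor of myeloid cells. What both groups share is the injected line, the site and the Smart-seq2 library method, with 5000 to 20000 cells as the input; the labels speak of CT2A cells and name no sort. The sources used here do not give the making of the KO allele, the strain, age and sex of the mice, or whether each library is a separate animal, so p-values reflect only how far these samples spread, part of which may be technical. The source entry of the labels reads brain, against the tissue entry, which was followed. The sample descriptions carry a number that starts with H and a serial number that starts with FRAS. The FRAS numbers do not interleave between the genotypes. By H number the KO libraries lie on both sides of the WT libraries, with KO replicate 1 far above the rest. What either number stands for is not stated. An order of processing, if the FRAS numbers mark one, cannot be told apart from genotype. Values of a group are listed in the order of replicates 1, 2 and 3.

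IGF-1 is a small secreted growth factor made in the liver under growth hormone and also locally, by fibroblasts and macrophages among others. It acts through IGF1R, a receptor tyrosine kinase at the cell surface that signals to phosphoinositide 3-kinase and Akt. The binding proteins hold IGF-1 and IGF-2 outside the cell and keep them from the receptor, and proteases that cut the binding proteins release the growth factors again.

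Igf1 was higher in KO tumours in the edgeR fit, as were 3 of the 6 binding proteins, Igfbp5, Igfbp6 and Igfbp7. In that fit 11.2% of all tested genes were called higher. These calls were lost without KO replicate 1 or any 1 of the WT replicates, where edgeR called 0 genes of the whole table. Igf1 and Igfbp5 also lost their calls without KO replicate 3 (adjusted p = 0.0566 and 0.0645, edgeR). With limma-voom, Igfbp7 was the only member called. The fitted rise was 10.7-fold for Igf1, 16.2-fold for Igfbp5, 10.5-fold for Igfbp6 and 3.44-fold for Igfbp7. Leaving out KO replicate 3 lowered the log2 fold change of Igf1 from 3.42 to 2.29, that of Igfbp5 from 4.02 to 3.04 and that of Igfbp6 from 3.39 to 2.45. Igfbp2, Igfbp3, Igfbp4 and the receptor gene Igf1r did not pass the test. The promoters of the 4 genes that rose are printed first. Igf1, Igfbp5 and Igfbp6 also followed one another from library to library (Pearson's r of 0.97 to 0.99 between them over the 6 libraries on the log2 scale). Igfbp4, which did not pass the test, followed them too (r of 0.92 to 0.96). These r values are a description over libraries that differ in genotype and marker levels. Values this high were common: of 12663 genes compared, 1112, 1033 and 1207 reached an r of 0.95 or more with Igf1, Igfbp5 and Igfbp6. Each window runs from 250 bases before to 50 bases after the RefSeq start of the gene (GRCm38.p6, the build also called mm10), 5′ to 3′ on the gene's strand. Capitals mark matches, on either strand, to 4 motifs: TATAAA (known as the TATA box), GGGCGG (GC box), TGANTCA (AP-1 site, taken here with any middle base) and also the STAT site, TTC and GAA with any 3 bases between them. No marked matches overlap.
Igf1: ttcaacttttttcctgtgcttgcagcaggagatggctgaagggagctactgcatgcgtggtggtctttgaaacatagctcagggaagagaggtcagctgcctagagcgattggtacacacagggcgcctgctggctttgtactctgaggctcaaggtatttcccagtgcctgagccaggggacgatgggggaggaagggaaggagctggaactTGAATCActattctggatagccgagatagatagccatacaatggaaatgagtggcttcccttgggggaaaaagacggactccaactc
Igfbp5: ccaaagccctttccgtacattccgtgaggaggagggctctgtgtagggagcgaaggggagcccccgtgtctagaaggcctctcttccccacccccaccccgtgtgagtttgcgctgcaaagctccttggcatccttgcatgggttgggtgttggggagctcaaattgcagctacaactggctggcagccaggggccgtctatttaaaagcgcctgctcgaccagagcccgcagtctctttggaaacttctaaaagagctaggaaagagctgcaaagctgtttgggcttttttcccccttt
Igfbp6: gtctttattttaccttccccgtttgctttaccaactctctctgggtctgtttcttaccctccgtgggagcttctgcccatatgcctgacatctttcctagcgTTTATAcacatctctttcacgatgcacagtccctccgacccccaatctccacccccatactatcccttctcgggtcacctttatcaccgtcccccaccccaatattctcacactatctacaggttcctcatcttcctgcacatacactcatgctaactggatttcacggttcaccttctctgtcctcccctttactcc
Igfbp7: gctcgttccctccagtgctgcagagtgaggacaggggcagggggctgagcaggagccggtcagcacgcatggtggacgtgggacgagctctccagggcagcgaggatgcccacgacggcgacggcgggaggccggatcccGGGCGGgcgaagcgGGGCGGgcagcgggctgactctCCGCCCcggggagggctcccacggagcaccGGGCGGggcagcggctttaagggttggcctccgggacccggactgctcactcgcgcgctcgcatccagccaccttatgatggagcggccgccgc

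The Igf1 window (chr10:87860861-87861160, plus strand) held 1 match to the loose AP-1 pattern, at position -37 from the start, with A as the free middle base. Its GC content was 52.3%. Of all 32851 promoter windows of this length, 7.81% held a match to this pattern with any middle base. The Igfbp5 window (chr1:72874816-72875115, minus strand) held none of the 4 motifs. The Igfbp6 window (chr15:102143936-102144235, plus strand) held 1 TATA match on the opposite strand, at position -148; its GC content was 49.7%, and 13.6% of all windows held a TATA match. The Igfbp7 window (chr5:77407996-77408295, minus strand) differed from the other three in sequence, with 4 GC boxes, 33 CpG dinucleotides and a GC content of 73.3%; a GC box was found in 35.7% of all windows. A STAT match was found in 8.30% of all windows and in none of the 9 windows of the members, Igfbp2 having 2. The RefSeq start of Igf1 lies inside the span of the gene in the count table, and that of Igfbp6 lies before it. A match to a short motif is a description of letters and not a binding site, and no binding was measured here.

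Library totals ran from 24369359 to 40574093 counts, and a count of 0 allows up to 3 counts, or 0.0820 to 0.1496 CPM (counts per 1000000 on library sizes scaled by TMM, a method that corrects for composition). Intervals and limits cover counting error only where they rest on counts, since the reads carried no molecular identifiers. The targeted gene, Siglece, was at 0, 0.228 and 0 CPM in the KO tumours and at 2.02, 2.82 and 1.90 CPM in the WT tumours. Summed marker levels differed between the groups, while cell makeup itself was not measured. The summed level of 10 glial and glioma markers was 52.8 to 620 CPM in KO tumours and 889 to 945 CPM in WT tumours, with KO replicate 2 at the top of the KO range. Glial markers were present in the WT libraries, with Nes at 296 to 362 CPM and Sox2 at 205 to 228 CPM, while Gfap reached at most 9.79 CPM in any library.

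The ligand gene Igf1 (ENSMUSG00000020053.18) spans 87858265 to 87937042 on chromosome 10 (mm10, plus strand); its merged exons cover 9904 bases, and the longest transcript has 4 exons. Its level was 149, 35.0 and 413 CPM in the KO tumours, and 18.6, 17.6 and 19.4 CPM in the WT tumours. The WT libraries were close together, and the KO libraries lay above all of them, as in 24.6% of all tested genes. The KO libraries were far apart, with replicate 2 the lowest and replicate 3 the highest. Means were 199 ± 194 CPM (SD, n = 3) for KO and 18.5 ± 0.872 CPM for WT. On the log2 scale, KO over WT was 3.42 (SE 0.79, 95% interval 1.61 to 5.24, edgeR quasi-likelihood test, adjusted p = 0.0333). Set against the WT mean, the KO replicates stood 8.06, 1.89 and 22.3 times as high. The call rested on 5 of the 6 libraries: the adjusted p was 0.103 without KO replicate 1, 0.0566 without KO replicate 3, and 0.136, 0.128 and 0.126 without WT replicates 1, 2 and 3, and it was 0.00129 without KO replicate 2. Without KO replicate 3 the log2 fold change was 2.29, and with limma-voom the adjusted p was 0.0656. In bulk tissue, more cells that express a gene and more RNA per cell cannot be told apart, which holds for every gene below as well.

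Igf1r (ENSMUSG00000005533.10; chromosome 7, 67952827 to 68233668, plus strand, 21 exons in the longest transcript) encodes the IGF-1 receptor. It stood at 43.5, 59.8 and 42.4 CPM in the KO tumours and at 48.6, 60.7 and 70.9 CPM in the WT tumours. The groups overlapped, with KO replicates 1 and 3 below each WT library and KO replicate 2 among them. Means were 48.6 ± 9.74 CPM in KO tumours and 60.1 ± 11.2 CPM in WT tumours. The log2 fold change was -0.31 (SE 0.27, 95% interval -0.93 to 0.32, adjusted p = 0.441, edgeR), so that a fall or a small rise both lie within the interval. It was called lower in 1 of the 13 alternative fits, limma-voom with quality weights (log2 fold change -0.53, adjusted p = 0.0394).

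**Figure D1:**
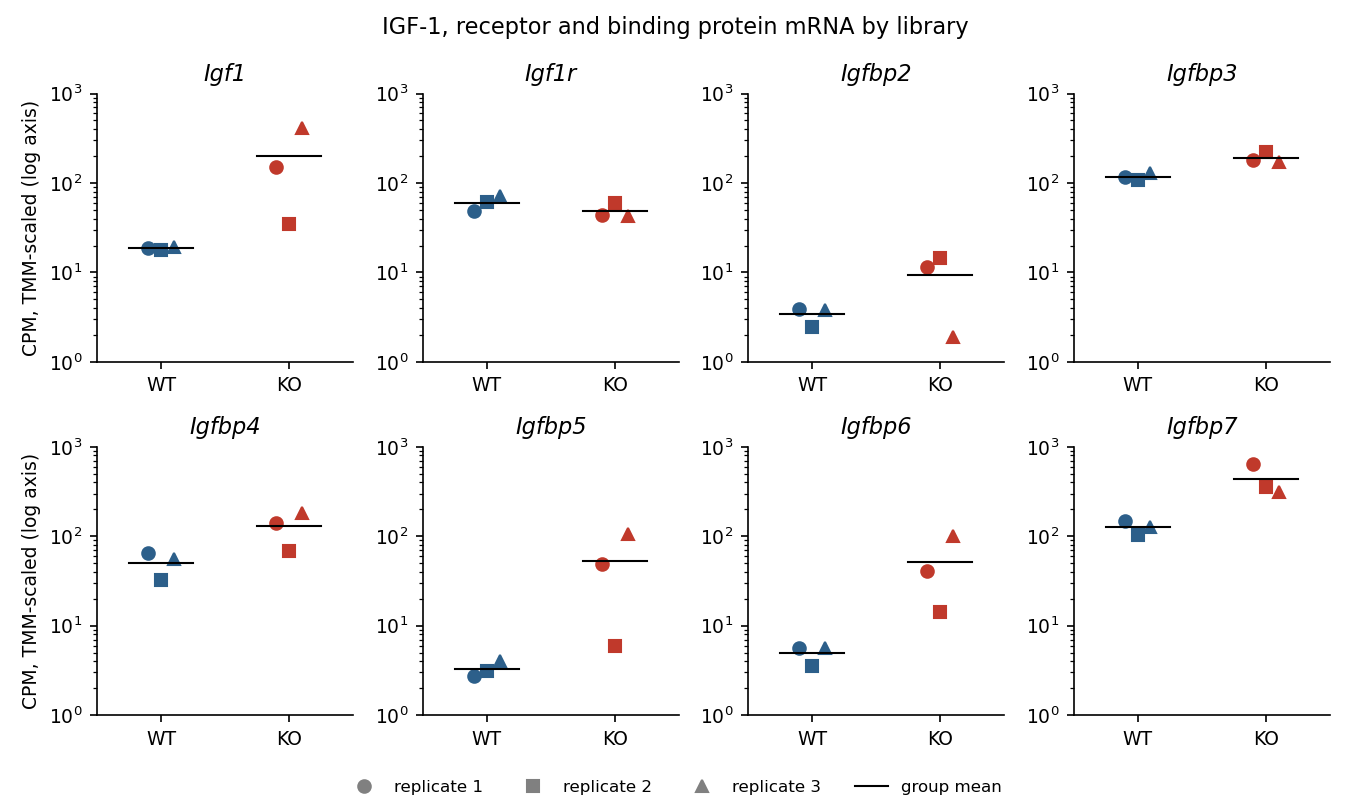
Level of each of the 8 genes in each library, in TMM-scaled CPM on a log axis, with WT in blue and KO in red; symbols mark the replicate and black lines the group means (n = 3). Igf1, Igfbp4, Igfbp5 and Igfbp6 show the same order of the KO libraries. For these genes replicate 2 is nearest to WT and replicate 3 the highest (413, 180.4, 105 and 99.9 CPM), while Igfbp2 is lowest in KO replicate 3 (1.89 CPM).

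Igfbp7 (ENSMUSG00000036256.13; chromosome 5, 77349240 to 77408041, minus strand), a secreted protein of vessel walls that binds IGFs more weakly than the rest of the family, had the highest level per length of the members. It was at 634, 358 and 315 CPM in the KO tumours and at 149.7, 104 and 127 CPM in the WT tumours. Each KO library was above each WT library, as in 24.6% of all tested genes, and here replicate 1, not replicate 3, was the highest. The log2 fold change was 1.78 (SE 0.37, 95% interval 0.92 to 2.65, adjusted p = 0.0279, edgeR). It was the only member called with limma-voom (adjusted p = 0.0419), and it missed the threshold without KO replicate 1 (0.105) and without WT replicates 1, 2 and 3 (0.118, 0.139 and 0.130). Of its 1209 exon bases, 85 (7.03%) are shared with Polr2b on the other strand, and the other members shared no exon bases with any gene in the table.

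Igfbp6 (ENSMUSG00000023046.6; chromosome 15, 102144362 to 102149511, plus strand) encodes a binding protein that prefers IGF-2 over IGF-1. It was at 40.8, 14.4 and 99.9 CPM in the KO tumours and at 5.66, 3.59 and 5.56 CPM in the WT tumours. The KO libraries lay above all WT libraries, as in 24.6% of all tested genes. The lowest KO library, replicate 2, was still 2.91 times the WT mean. Its log2 fold change was 3.39 (SE 0.68, 95% interval 1.82 to 4.95, adjusted p = 0.0260, edgeR). The adjusted p was 0.0455 without KO replicate 3, 0.0934 without KO replicate 1, between 0.107 and 0.118 without each of the 3 WT replicates in turn, and 0.0577 with limma-voom.

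Igfbp5 (ENSMUSG00000026185.8; chromosome 1, 72857932 to 72874884, minus strand), a binding protein that also attaches to the extracellular matrix, had the greatest fold change of the 8. Its KO values were far apart, at 49.3, 5.92 and 105 CPM, against 2.71, 3.13 and 4.05 CPM in the WT tumours. KO replicate 2 was 1.80 times the WT mean and KO replicate 3 was 31.9 times it. The log2 fold change was 4.02 (SE 0.90, 95% interval 1.93 to 6.10, adjusted p = 0.0320, edgeR). The adjusted p was 0.105 without KO replicate 1, 0.0645 without KO replicate 3, 0.137, 0.123 and 0.120 without WT replicates 1, 2 and 3, and 0.0989 with limma-voom, which gave a log2 fold change of 3.15.

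Igfbp2, the neighbour of Igfbp5 on chromosome 1 with 5457 bases between them, did not follow it. Igfbp2 (ENSMUSG00000039323.18; 72824503 to 72852474, plus strand), a binding protein common in the nervous system and in gliomas, was at 11.5, 14.5 and 1.89 CPM in the KO tumours and at 3.88, 2.48 and 3.84 CPM in the WT tumours. KO replicate 3 was the lowest of all 6 libraries and the other two KO libraries the highest, so the groups overlapped. The log2 fold change was 1.46 (SE 0.69, 95% interval -0.13 to 3.04, adjusted p = 0.182, edgeR). Without KO replicate 3 it was 1.91 and past the threshold (adjusted p = 0.0459). Igfbp2 and Igfbp5 had a Pearson's r of -0.02 over the 6 libraries.

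Igfbp3 and Igfbp4 were each higher in every KO library than in any WT library, as were 24.6% of all tested genes, and did not pass the test. Igfbp3 (ENSMUSG00000020427.11; chromosome 11, 7206086 to 7213923, minus strand), the main carrier of IGF-1 in blood, was at 181, 222 and 172 CPM in the KO tumours and at 116, 108 and 128 CPM in the WT tumours. Its log2 fold change was 0.71 (SE 0.26, 95% interval 0.11 to 1.31, adjusted p = 0.113, edgeR), and KO replicate 2 was its highest library. Igfbp4 (ENSMUSG00000017493.12; chromosome 11, 99041244 to 99054392, plus strand), a binding protein that the protease PAPP-A cuts, was at 142, 68.8 and 180.4 CPM in the KO tumours and at 64.3, 32.2 and 55.8 CPM in the WT tumours. KO replicate 2 lay just above WT replicate 1, and the log2 fold change was 1.36 (SE 0.43, 95% interval 0.38 to 2.34, adjusted p = 0.0785, edgeR). Igfbp4 passed with DESeq2 (adjusted p = 0.0299), with no low-count filter (0.0318), without KO replicate 2 (0.00837) and in limma-voom with quality weights (0.00263). Igfbp1, which lies 3539 bases from Igfbp3 and is a liver and decidual gene, had 5 counts in KO replicate 3 and 0 in the other 5 libraries.

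Over the 8 members, 4 were higher and 0 lower in KO at an adjusted p under 0.05 (edgeR), beside 11.2% of the 18621 tested genes called higher and 0.226% called lower. At an unadjusted p under 0.05 there were 6 higher and 0 lower, beside 5919 of all 18621 tested genes in either direction. DESeq2 called 5 members higher and 0 lower, beside 17.5% and 6.68% of genes; limma-voom 1 and 0, beside 5.31% and 0.166%; and limma-voom with quality weights 7 and 1, beside 29.7% and 25.5%. Within edgeR, 4 members were higher and 0 lower with RLE scaling (9.66% and 0.306% of genes), without composition scaling (9.19% and 0.129%) and with a filter of 50 counts in 3 libraries (13.7% and 0.269%), and 5 and 0 with no filter (8.71% and 1.44%). Without KO replicate 2, 5 were higher and 0 lower (22.7% and 18.5% of genes). Without KO replicate 3 it was 3 and 0 (4.85% and 0.0309% of genes). KO replicate 2 was the KO library nearest to WT for Igf1, Igf1r, Igfbp4, Igfbp5 and Igfbp6, but not for Igfbp2, Igfbp3 and Igfbp7. For 6 of the 8 the groups did not overlap, each with KO above WT, as did 24.6% of all tested genes. The median log2 fold change of the members was 1.62 and that of all tested genes -0.05. In the edgeR fits without KO replicate 1 or without any of the WT replicates, 0 genes of the whole table were called. Members at an unadjusted p under 0.05 numbered 5, 6, 4 and 5 without KO replicate 1 and WT replicates 1, 2 and 3. In the same order, all genes at that cutoff numbered 3461 of 19380, 4931 of 19694, 4282 of 19483 and 4246 of 19503, in either direction.

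Levels were compared between genes per kilobase of merged exon. That length pools all annotated transcripts of a gene (8 for Igf1, 6 for Igf1r), and which of them were expressed was not tested, so the comparison is rough. On that scale the order in WT was Igfbp7 (105 CPM per kb), Igfbp3 (37.5), Igfbp4 (11.5), Igfbp6 (4.44), Igf1r (3.58), Igf1 (1.87), Igfbp2 (1.84) and Igfbp5 (0.549). The ranges of Igfbp6 and Igf1r overlapped there, as did those of Igf1 and Igfbp2. In KO the order was Igfbp7 (360.5 CPM per kb), Igfbp3 (61.3), Igfbp6 (46.5), Igfbp4 (29.5), Igf1 (20.1), Igfbp5 (8.90), Igfbp2 (5.04) and Igf1r (2.89). In KO only Igfbp7 was clear of its neighbour, and the ranges of all other neighbours in the order overlapped.

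The 6 binding proteins summed to 666, 405 and 465 CPM per kb in the KO tumours and to 183, 133 and 166 CPM per kb in the WT tumours. The groups did not overlap, and the exact two-sided permutation test gave p = 0.1, the smallest that 3 against 3 libraries allow. Within that sum Igfbp7 held 78.8%, 73.2% and 56.1% in the KO tumours and 67.6%, 64.7% and 63.1% in the WT tumours. Igfbp3 held a smaller share in each KO library (8.69%, 17.6% and 11.8%) than in any WT library (20.3%, 26.0% and 24.6%), although its own level was higher in KO. The share of Igfbp6 was higher in each KO library (5.51%, 3.20% and 19.3%) than in any WT library (2.78%, 2.43% and 3.01%), and the difference of the means was 6.60 percentage points, or 1.61 when KO replicate 3 was left out. These 2 shares had an exact permutation p = 0.1 each, adjusted p = 0.3 over the 6 proteins, and the shares of Igfbp2, Igfbp4, Igfbp5 and Igfbp7 overlapped between the groups (exact permutation p = 0.8, 0.6, 0.4 and 0.6).

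**Figure D2:**
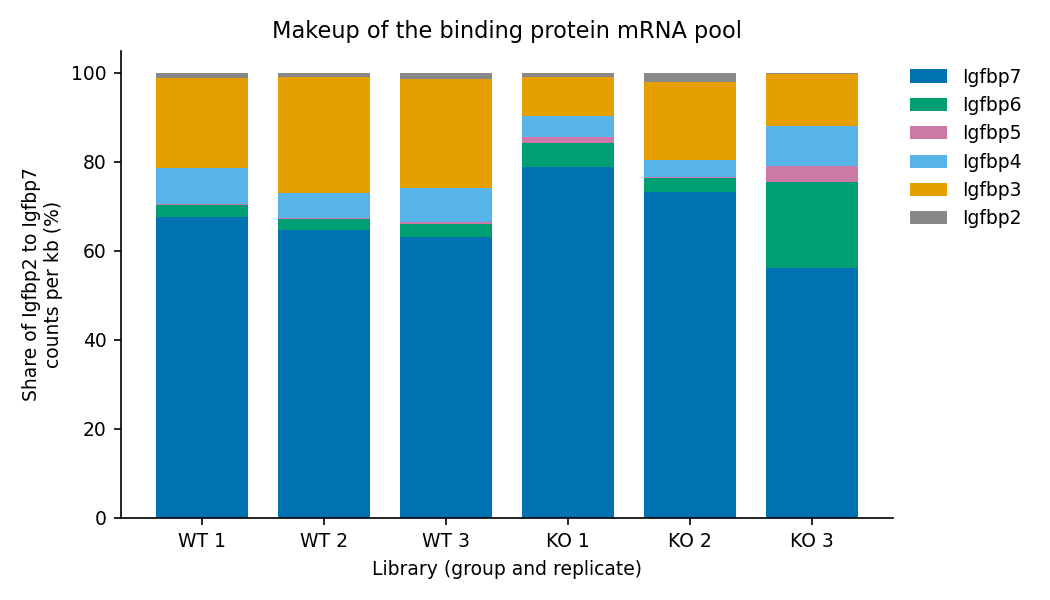
Share of each binding protein in the summed counts per kilobase of Igfbp2 to Igfbp7, 1 bar per library, stacked to 100%. The 3 WT bars are alike, with Igfbp3 at 20.3% to 26.0%; in the KO bars Igfbp3 is at 8.69% to 17.6%, and KO replicate 3 has a wide Igfbp6 segment (19.3%).

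The balance of ligand and receptor mRNA was followed within each library, where library scaling has no part. Its level depends on the merged exon lengths used, 9904 bases for Igf1 and 16791 for Igf1r. Per kilobase, Igf1 over Igf1r was 5.82, 0.993 and 16.5 in the KO tumours and 0.651, 0.492 and 0.463 in the WT tumours. The ligand's mRNA was thus below the receptor's in each WT library and above it in KO replicates 1 and 3. The mean log2 ratio was 2.19 ± 2.05 in KO and -0.92 ± 0.26 in WT (SD, n = 3, exact two-sided permutation p = 0.1). The summed binding proteins over Igf1 gave 44.1, 114 and 11.1 in the KO tumours and 97.3, 74.5 and 84.9 in the WT tumours. That ratio overlapped between the groups, with KO replicate 2 above and KO replicates 1 and 3 below the WT range (log2 difference -1.15, exact permutation p = 0.4), and leaving out KO replicate 3 gave -0.26, and leaving out KO replicate 2 gave -1.94.

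Igf2, the second ligand of IGF1R and an imprinted growth factor, had a fold change of the opposite sign that did not pass the test. It was at 13.9, 53.2 and 7.53 CPM in the KO tumours and at 83.6, 64.6 and 84.4 CPM in the WT tumours. Each KO library was below each WT library, as in 19.5% of all tested genes, and the log2 fold change was -1.64 (SE 0.66, 95% interval -3.15 to -0.12, adjusted p = 0.136, edgeR); it was called lower with DESeq2 (0.0405), with no low-count filter (0.0411), without KO replicate 2 (0.00173) and in limma-voom with quality weights (0.000508). Counts of Igf2 are uncertain, since 62.8% of its exon bases are shared with the predicted gene Gm49394. Igf1 over Igf2, a ratio chosen after the values were seen, was 6.19, 0.380 and 31.7 in the KO tumours and 0.129, 0.158 and 0.133 in the WT tumours per kilobase (exact permutation p = 0.1).

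**Figure D3:**
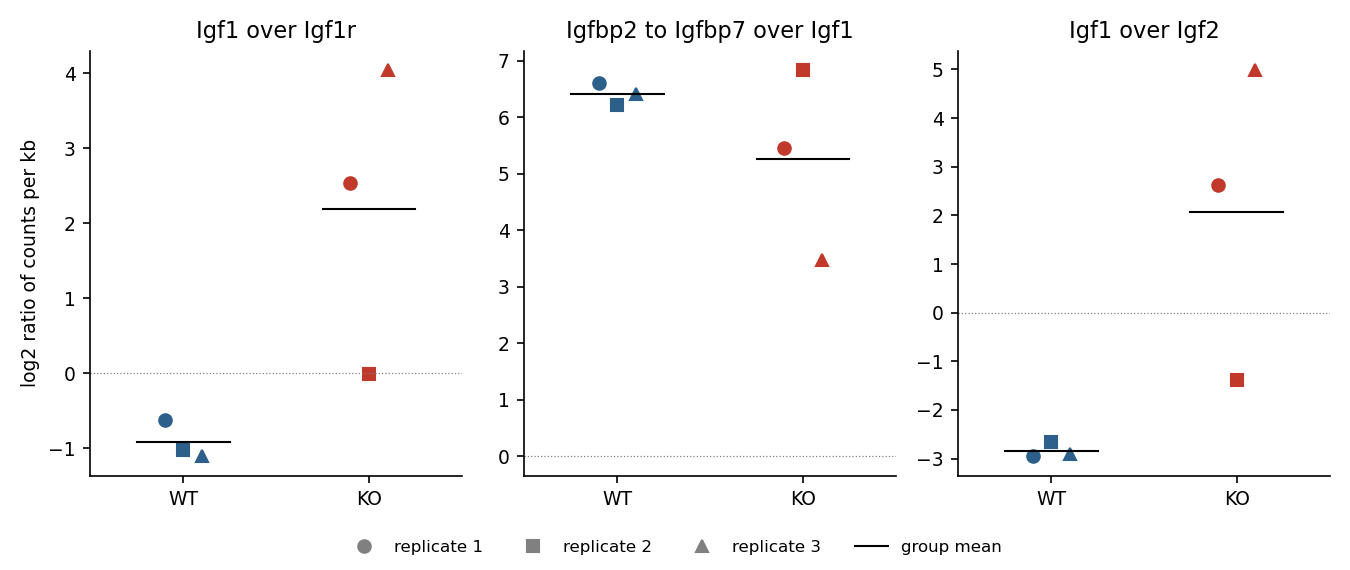
Log2 ratios of counts per kilobase within each library, for Igf1 over Igf1r, summed Igfbp2 to Igfbp7 over Igf1, and Igf1 over Igf2; symbols mark the replicate, black lines the group means (n = 3), and dotted lines equal levels. WT libraries lie close together in each panel, and KO replicates 2 and 3 mark the ends of the KO spread, as at -0.01 and 4.04 for Igf1 over Igf1r.

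Among 45 other genes of the IGF pathway, 38 were tested, and 6 (15.8%) were higher and 0 lower (edgeR), beside 11.2% and 0.226% of all tested genes. At an unadjusted p under 0.05, 13 were higher and 1 lower, beside 5919 of all 18621 tested genes in either direction. DESeq2 called 8 and 1, beside 17.5% and 6.68% of all genes, limma-voom 5 and 0, beside 5.31% and 0.166%, and limma-voom with quality weights 16 and 8, beside 29.7% and 25.5%. Their median log2 fold change was 0.40, and that of all tested genes -0.05. Of the ligands, receptors and other binders, 1 of 4 tested genes was higher: Igf2r, the receptor that takes up IGF-2 for breakdown, at 178, 73.8 and 164 CPM in the KO tumours and 11.7, 19.9 and 16.5 CPM in the WT tumours (log2 fold change 3.11, SE 0.42, adjusted p = 0.0246, edgeR). The insulin receptor Insr, which can pair with IGF1R, was at 37.4 ± 12.1 CPM in KO tumours and 50.4 ± 8.72 CPM in WT tumours (adjusted p = 0.351, edgeR), and limma-voom with quality weights called it lower (0.0202). The related receptor Insrr was at 7.92 ± 7.42 and 15.3 ± 5.15 CPM (adjusted p = 0.465, edgeR). Ins1 and Igfbpl1 had 0 counts in each library, Ins2 had 4 counts in KO replicate 3 only, and Igfals, whose product joins IGF-1 and Igfbp3 in the blood, had at most 22 counts in a library; these and Igfbp1 were not tested.

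Of the enzymes that cut binding proteins, 2 of 4 tested genes were higher, Adam12 and Htra1, and of 2 inhibitors of such enzymes 1 was, Stc2. These are edgeR calls, beside 11.2% of all tested genes called higher. The median log2 fold change of all 6 was 1.96. Adam12, a metalloprotease that cuts Igfbp3 and Igfbp5, was at 128, 41.9 and 100.1 CPM in the KO tumours and 6.07, 11.2 and 11.4 CPM in the WT tumours (log2 fold change 3.23, SE 0.48, adjusted p = 0.0246, edgeR). Htra1, a secreted serine protease, was at 300.2, 100.6 and 103.5 CPM in the KO tumours and at 26.0 ± 12.2 CPM over the WT tumours (2.69, SE 0.55, adjusted p = 0.0272, edgeR); its log2 fold change was 1.91 without KO replicate 1 and 3.53 in limma-voom with quality weights. Stc2, stanniocalcin 2, is not a protease but an inhibitor of PAPP-A, and it rose as well, from 1.62 ± 0.376 CPM in WT tumours to 10.4 ± 3.90 CPM in KO (adjusted p = 0.0246, edgeR). Htra3 did not pass (log2 fold change 1.24, SE 0.34, adjusted p = 0.0563, edgeR), but it did with DESeq2 (0.0206), with no low-count filter (0.0310), with the filter of 50 counts (0.0479), in limma-voom with quality weights (0.000193) and without KO replicate 2 (0.00266). The PAPP-A gene Pappa was at 3.64, 5.01 and 0.399 CPM in KO tumours and 0.874, 2.08 and 1.16 CPM in WT tumours, which overlapped, and Pappa2 had 9, 9 and 7 counts in KO and 1, 0 and 0 in WT and was not tested.

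Inside the cell, 2 of 21 receptor signalling genes were higher, beside 11.2% of all tested genes. Grb10, an adaptor that binds the IGF-1 and insulin receptors and restrains their signal, was at 107, 37.8 and 157 CPM in the KO tumours and at 5.46, 7.83 and 7.35 CPM in the WT tumours (log2 fold change 3.87, SE 0.53, adjusted p = 0.0246, edgeR). Pik3r1, the regulatory subunit p85 alpha of phosphoinositide 3-kinase, had a log2 fold change of 1.41 (SE 0.34, adjusted p = 0.0380, edgeR) and missed the threshold with limma-voom (0.0537) and without composition scaling (0.0734). The adaptor Grb2 (1.15, adjusted p = 0.0956, edgeR) and the transcription factor Foxo1 (0.86, adjusted p = 0.0966, edgeR) did not pass. Without KO replicate 2 both did (0.00644 and 0.0172), as they did in limma-voom with quality weights (0.000570 and 0.00626), and Grb2 also with DESeq2 (0.0473). The median log2 fold change of this list was 0.39. Of 5 growth hormone axis genes 0 were called by edgeR, DESeq2 or limma-voom. With quality weights limma-voom called 3 higher, beside 29.7% of all tested genes. In edgeR 3 were higher at an unadjusted p under 0.05, beside 5919 of all 18621 tested genes in either direction. These 3 axis genes were Stat5b, Jak2 and Stat5a, with log2 fold changes of 0.71, 0.64 and 0.72 (adjusted p = 0.125, 0.132 and 0.138, edgeR). The fourth named gene of the axis, Gh, was at 0.486 ± 0.429 CPM in KO tumours and 1.71 ± 1.27 CPM in WT tumours (adjusted p = 0.188, edgeR); its log2 fold change of -1.78 became -2.77 on leaving out KO replicate 2 and -0.98 on leaving out WT replicate 1. In the fit that left out KO replicate 2, edgeR called Stat5b, Stat5a and Jak2 higher (adjusted p = 0.0166, 0.0342 and 0.0436) and Gh lower (0.0455). That fit called 22.7% of all tested genes higher and 18.5% lower. Of the Igf2 mRNA binding proteins, Igf2bp2 and Igf2bp3 were tested and 0 passed. They were at 35.0 ± 23.7 and 16.2 ± 17.6 CPM in KO tumours against 69.8 ± 4.41 and 46.7 ± 10.4 CPM in WT tumours. In edgeR the adjusted p was 0.169 and 0.178, and the unadjusted p 0.0584 and 0.0648. DESeq2 and limma-voom each had both at an unadjusted p under 0.05 and called 0. All genes at that cutoff numbered 7222 and 6727 of 18621. With quality weights limma-voom called both lower, beside 25.5% of all tested genes. So did edgeR without KO replicate 2 (adjusted p = 0.00273 and 0.00144), beside 18.5%. Igf2r, Adam12, Htra1, Stc2 and Grb10 lost their calls without KO replicate 1 or any 1 of the WT replicates (adjusted p from 0.0934 to 0.122), and Pik3r1 did so also without KO replicate 3 (0.0904 to 0.156 over these 5 fits).

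**Figure D4:**
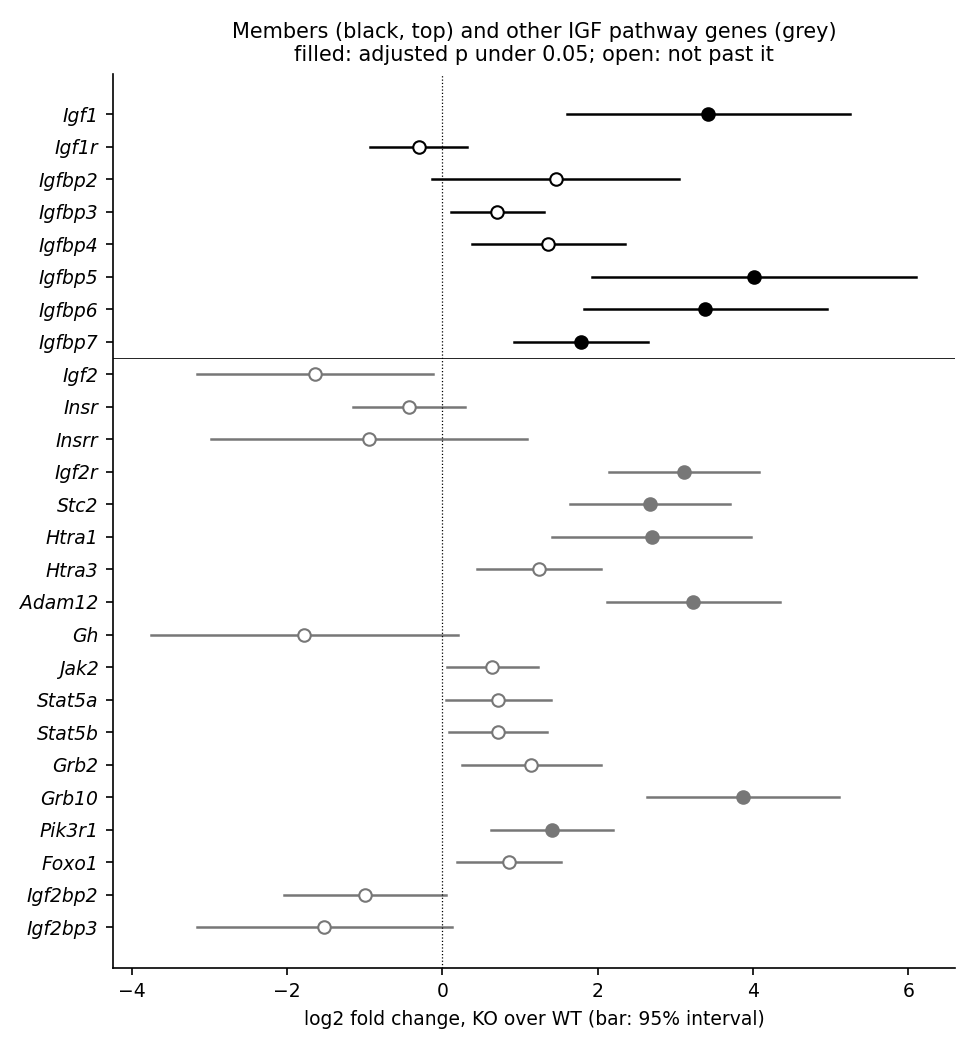
Log2 fold change of KO over WT with its 95% interval for the 8 members (black) and 18 other genes of the IGF pathway (grey), from the edgeR fit with all 6 libraries; filled points passed an adjusted p of 0.05. Igf1, Igfbp5 and Igfbp6 lie beyond 3 on the log2 axis together with Igf2r, Adam12 and Grb10, and Igf1r lies at -0.31.

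Many markers of cell types also differed between the groups. The counts below are edgeR calls unless another fit is named, beside 11.2% of all tested genes called higher and 0.226% lower. Of 10 fibroblast markers 9 were higher, and their summed level was 12303 to 38708 CPM in KO tumours and 2270.3 to 3628 CPM in WT tumours. Of 10 macrophage markers 8 were higher, with sums of 2561 to 8443 CPM and 1044 to 1800.3 CPM. Endothelial markers (9 of 10 higher) summed to 420 to 1364 CPM in KO tumours and 99.4 to 127 CPM in WT tumours, and pericyte and smooth muscle markers (6 of 10) to 513 to 1007 CPM and 195 to 212 CPM. Skeletal muscle markers (7 of 8) summed to 358 to 2277 CPM in KO tumours and 106 to 216 CPM in WT tumours, T cell markers (6 of 7) to 147 to 492 CPM and 45.5 to 84.5 CPM, and B and plasma cell markers (3 of 5 tested) to 28.6 to 257 CPM and 3.65 to 9.65 CPM. Adipocyte markers (3 of 9) summed to 71.1, 150 and 977 CPM in KO replicates 2, 1 and 3 and to 22.5 to 46.6 CPM in WT tumours. Of the 10 glial and glioma markers 3 were lower, 5 with DESeq2, 3 with limma-voom, 10 in limma-voom with quality weights and 1 without composition scaling. The shares of all tested genes called lower in these alternatives were 6.68%, 0.166%, 25.5% and 0.129%. DESeq2 called all 10 fibroblast, macrophage and endothelial markers, 7 pericyte and smooth muscle, 8 muscle, 7 T cell, 4 B and plasma cell and 5 adipocyte markers higher. It called 17.5% of all tested genes higher, and limma-voom 5.31%. With limma-voom these counts were 7, 6, 8, 5, 3, 4, 1 and 0, in the order fibroblast, macrophage, endothelial, pericyte and smooth muscle, skeletal muscle, T cell, B and plasma cell, and adipocyte. By summed level, in each of these lists KO replicate 2 was the KO library nearest to WT, as it was for Igf1, Igfbp4, Igfbp5 and Igfbp6, but not for Igfbp2 and Igfbp3, for which it was the highest KO library, nor for Igfbp7, for which KO replicate 3 was nearest. By the mean log2 difference from WT over a list, KO replicate 1 was nearer than replicate 2 for adipocyte markers (0.45 against 1.23) and for pericyte and smooth muscle markers (1.45 against 1.49). None of the markers in these lists had 0 counts in all 6 libraries. The part of cell makeup in the IGF results was not tested. Keratinocyte markers were scarce (sums of 0.684 to 7.58 CPM in KO tumours and 0.417 to 1.01 CPM in WT tumours, with Krt5, Krt14, Krt1 and Dsg3 under 1 CPM in each library). Red blood cell genes summed to 12.3 to 274 CPM in KO tumours and 10.5 to 42.7 CPM in WT tumours. Of these last 2 lists edgeR called 0 of 2 and 0 of 4 tested genes, DESeq2 1 and 0, and limma-voom 0 and 0. In edgeR 2 and 1 were at an unadjusted p under 0.05, beside 5919 of all 18621 tested genes in either direction.

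**Figure D5:**
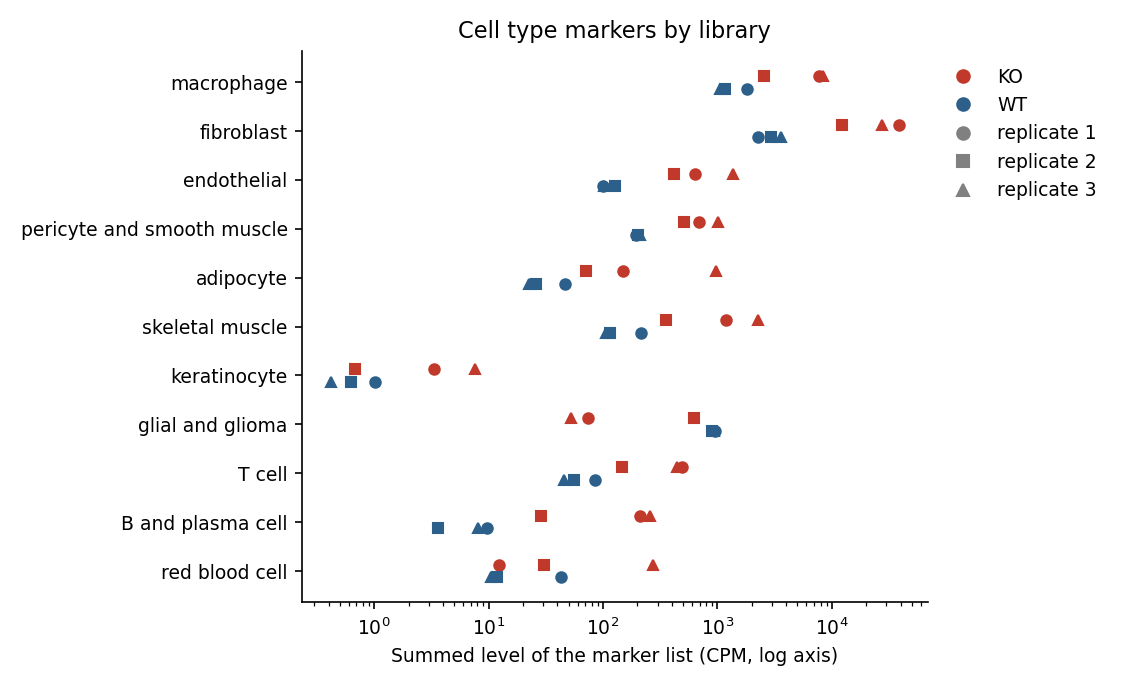
Summed level of each cell type marker list in each library, in CPM on a log axis, with KO in red and WT in blue and symbols for the replicate. Fibroblast, macrophage and endothelial sums are higher in each KO library than in any WT library, and the glial and glioma sum is lower, at 620 CPM in KO replicate 2 and 889 to 945 CPM in WT tumours.

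The genes most like each member were ranked by Pearson's r of log2 CPM over the 6 libraries among 12663 genes, as a description in which all points share the genotype split and the libraries' makeup. For Igf1 they were Nceh1, Lrrc28 and Ighm (r of 1.00 each after rounding), and 1112 genes reached an r of 0.95 or more, so that the first 3 are not set apart from many others. Igfbp5 was most like Ak3, Adipor1 and Zfp597 and Igfbp6 most like Slc9a3r2, Gmcl1 and Gata3, with 1033 and 1207 genes at 0.95 or more. Igfbp7 was most like Cyp26b1, Fam20a and Hmcn2 (248 genes), Igfbp4 most like Psmf1, Actn2 and Lrmda (324 genes) and Igf1r most like Ergic1, Zc3h7b and Plxnb1 (150 genes). Igfbp2 and Igfbp3 had few genes like them, 2 each at 0.95 or more. The nearest to Igfbp2 were Xkr8, Ncr1 and Tmem18 (r of 0.99, 0.97 and 0.94), and the nearest to Igfbp3 were Slco2a1, Art3 and Tgfb2 (0.97, 0.97 and 0.95).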

How the data were processed

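What the authors deposited is 1 table of raw counts of reads for each gene symbol, laid out as featureCounts writes it, with exon coordinates and summed exon length, per the file headers. The submitters' processing notes name mm10 as build and DESeq2 as a tool. The aligner, annotation, strand setting and handling of multiply aligned reads: not given in the sources used here. Smart-seq2 does not mark strand, so reads of overlapping genes on opposite strands cannot be told apart. Groups follow the genotype labels; replicate numbers follow accession order.

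KO was compared with WT in edgeR 4.0.16 (R 4.3.3): quasi-likelihood F test, two-sided, TMM, filterByExpr, Benjamini-Hochberg over 18621 genes, threshold 0.05. SE is the absolute log2 fold change over the square root of F. Alternatives were RLE or no composition scaling, no filter, a filter of 50 counts in 3 libraries, DESeq2 1.42.0, limma-voom (limma 3.58.1) without and with quality weights, and each library left out. Shares and ratios, in counts per kilobase, were compared by exact permutation. Likeness used log2 CPM with a prior count of 2 and genes with a mean of at least 1, predicted models left out. The fit was tested on simulated counts.

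Named were the 8 members, up to 4 genes per pathway list with the smallest p, any ligand or binder in those lists, and the 3 genes most like each member; Pappa, Pappa2, Siglece and the glial markers named singly were chosen after their values were seen. Members and lists were chosen with earlier results of these data known. Promoters are from RefSeq (GRCm38.p6; 8 of 8 members matched), gene identifiers from GENCODE M21, whose positions agreed for all 8.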

Additional observations from a re-analysis of the deposited data

How the results depend on the processing

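Of the 8 members, 4 were called higher in the fit reported, 1 in limma-voom, 7 in limma-voom after quality weighting (which also called 1 lower), and 0 to 5 when 1 library was left out. Over all genes, 2083 were higher and 42 lower in the fit reported. The counts were 3266 and 1244 with DESeq2, 5531 and 4749 with limma-voom and quality weights, 988 higher with limma-voom, 24 lower without composition scaling and 476 lower with no low-count filter. They ran from 0 to 4449 higher and from 0 to 3629 lower when 1 library was left out. The share of calls that were higher was 98.0% in the fit reported, 85.8% with no low-count filter, 72.4% with DESeq2, 53.8% with quality weights and 55.1% without KO replicate 2. Without composition scaling the median of all genes moved from -0.05 to -0.18; Igf1 then had a log2 fold change of 3.15 and Igf1r of -0.44. Each member kept its direction in all 13 alternatives. The difference in the share of Igfbp2, -0.10 percentage points, was 0.0436 without division by length, 0.794 without Igfbp7 in the sum, and -0.56 to 0.30 when 1 library was left out; that of Igfbp7, 4.24 points, was -0.48 to 10.9 when 1 library was left out. The cause was not tested. No paired analysis was possible because the labels give no replicate numbers that groups share. With 3 libraries a group, the permutation tests cannot reach a p below 0.1, and a lone left-out library leaves 2 in its group.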
